A study of Homo sapiens with 5 samples.

Results

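PRLR encodes the prolactin receptor, and its locus was examined here as the 300-kb stretch of chromosome 5 from 35000 to 35300 kb (hg19). The gene runs on the minus strand, from its start at 35230.8 kb down to its end at 35048.8 kb, so it fills 182 kb of the stretch. The locus was chosen from these data, because the 100 kb in its middle had the widest difference in SMAD2 summits between the treatments of any 100-kb window. The difference in summit number at PRLR, and everything drawn from the same contrast, is therefore given as a description, with no test. A summit is the single base at which a ChIP-seq peak is highest. Of 233945 summits in the 4 libraries, 328 lay in the locus: 72 and 59 in the libraries of cells given activin, and 91 and 106 in those given palbociclib as well.

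The cells were T47D, an established human luminal breast cancer line that is positive for the estrogen receptor. All 4 libraries were immunoprecipitated with an anti-SMAD2 antibody from cells given activin A at 50 ng/ml for 1.5 h. In 2 of them activin was the only agent, and in the other 2 the cells also received palbociclib at 1 µM for 24 h. The fifth sample, input DNA of untreated cells, was used for peak calling and has no summit list here, and all summits described come from activin-treated cells. Each list carries a score per summit, read as the −log10 q given by the authors' peak caller. It ranks summits within 1 list and is no measure of binding between lists.

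Prolactin is a hormone of the pituitary that drives growth of the mammary epithelium and milk production. Its receptor belongs to the class I cytokine receptors, has no kinase of its own, and signals through the bound kinase JAK2 to the transcription factor STAT5. The receptor is known to be present in luminal mammary cells and in many estrogen receptor-positive tumours. Activin A, a relative of TGF-β, binds serine/threonine kinase receptors that phosphorylate SMAD2 and SMAD3, which enter the nucleus with SMAD4 and act together with other DNA-binding factors. Palbociclib blocks the cell cycle kinases CDK4 and CDK6. In RefSeq's gene order, AGXT2, a mitochondrial aminotransferase, is the next protein-coding gene past the end of PRLR, and SPEF2, a protein of the sperm flagellum, is the next one before its start.

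RefSeq gives 2 annotated starts for PRLR in its promoter table, 112.4 kb apart on GRCh38.p14. Their upstream bases are shown because the strongest summits of the locus lay near the outer start, and because the inner start lies deep in the gene body. By the rounded hg19 start these summits were 0.2 kb inside the gene, and whether the bases shown include them is not known. Both sequences are 250 bases of the minus strand, written 5′ to 3′ and ending just before the start. They lie at chr5:35230488-35230737 for the outer one and chr5:35118123-35118372 for the inner one. Capitals mark a match to TGANTCA, a loose form of the AP-1 element that allows any base at N, here an A.
Outer PRLR promoter: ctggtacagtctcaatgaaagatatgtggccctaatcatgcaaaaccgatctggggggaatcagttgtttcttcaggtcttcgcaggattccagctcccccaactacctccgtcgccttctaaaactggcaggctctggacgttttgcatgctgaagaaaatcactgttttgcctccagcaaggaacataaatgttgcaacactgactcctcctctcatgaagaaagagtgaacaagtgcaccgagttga
Inner PRLR promoter: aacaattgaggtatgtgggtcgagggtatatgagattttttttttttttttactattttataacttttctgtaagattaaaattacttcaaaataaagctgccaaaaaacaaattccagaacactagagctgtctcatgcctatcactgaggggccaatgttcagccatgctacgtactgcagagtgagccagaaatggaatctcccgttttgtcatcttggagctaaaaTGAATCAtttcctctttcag

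The letters of 6 elements were searched on both strands of these 2 sequences. The SMAD element CAGAC was in neither, and 38.0% of 35116 RefSeq promoters of the same length hold it. The GC-rich SMAD element GGCGC was also in neither, against 44.5% of all promoters. Shorter forms of the SMAD elements were not searched, so both sequences may still hold sites that SMAD proteins bind. The loose AP-1 form TGANTCA, with any base at N, occurred 1 time, as TGAATCA, 20 bases before the inner start. The same loose form is held by 6.6% of promoters. The STAT5 element TTCNNNGAA was in neither sequence, against 6.6% of promoters. The forkhead element TGTTTAC and the GATA element AGATAA were also in neither, against 3.0% and 9.2%. With 1 match in all, none overlapped another. These sequences are on GRCh38 and the summits on hg19. No summit was placed on the sequences.

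The strongest SMAD2 summit of the locus sat near the outer start of PRLR in every library. It lay at 35230567 and 35230554 in activin replicates 1 and 2, and at 35230597 and 35230557 in palbociclib replicates 1 and 2. That is 0.2 kb inside the gene, with the start taken from coordinates rounded to 0.1 kb. Its score was 172 and 165 with activin, and 347 and 272 with palbociclib added. It ranked 667 and 865 among 51535 and 54243 activin summits, and 288 and 452 among 62960 and 65207 palbociclib summits. The 4 summits thus fell within 44 bp of each other, in the strongest of 10 equal score classes of each list. A second site 2.1 kb inside the gene (35228618 to 35228836) was listed in both activin libraries, with scores of 29.7 and 39.0, and in palbociclib replicate 2, with a score of 90.3. Palbociclib replicate 1 listed no summit there.

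Within 5 kb of the start lay 6 regions in all, where a region is a chain of summits at most 200 bp apart. Besides the 2 already named, 1 at 35231988 to 35232125, before the start, was listed in both activin libraries alone, with scores of 3.25 and 15.8. The region at 35233491 to 35233566 held a summit in activin replicate 2 and palbociclib replicate 1. The other two, at 35226755 and 35233087, held a summit of activin replicate 1 and of palbociclib replicate 1 alone. Apart from the strong summit, the vicinity of the start showed no site seen in every library.

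**Figure D1:**
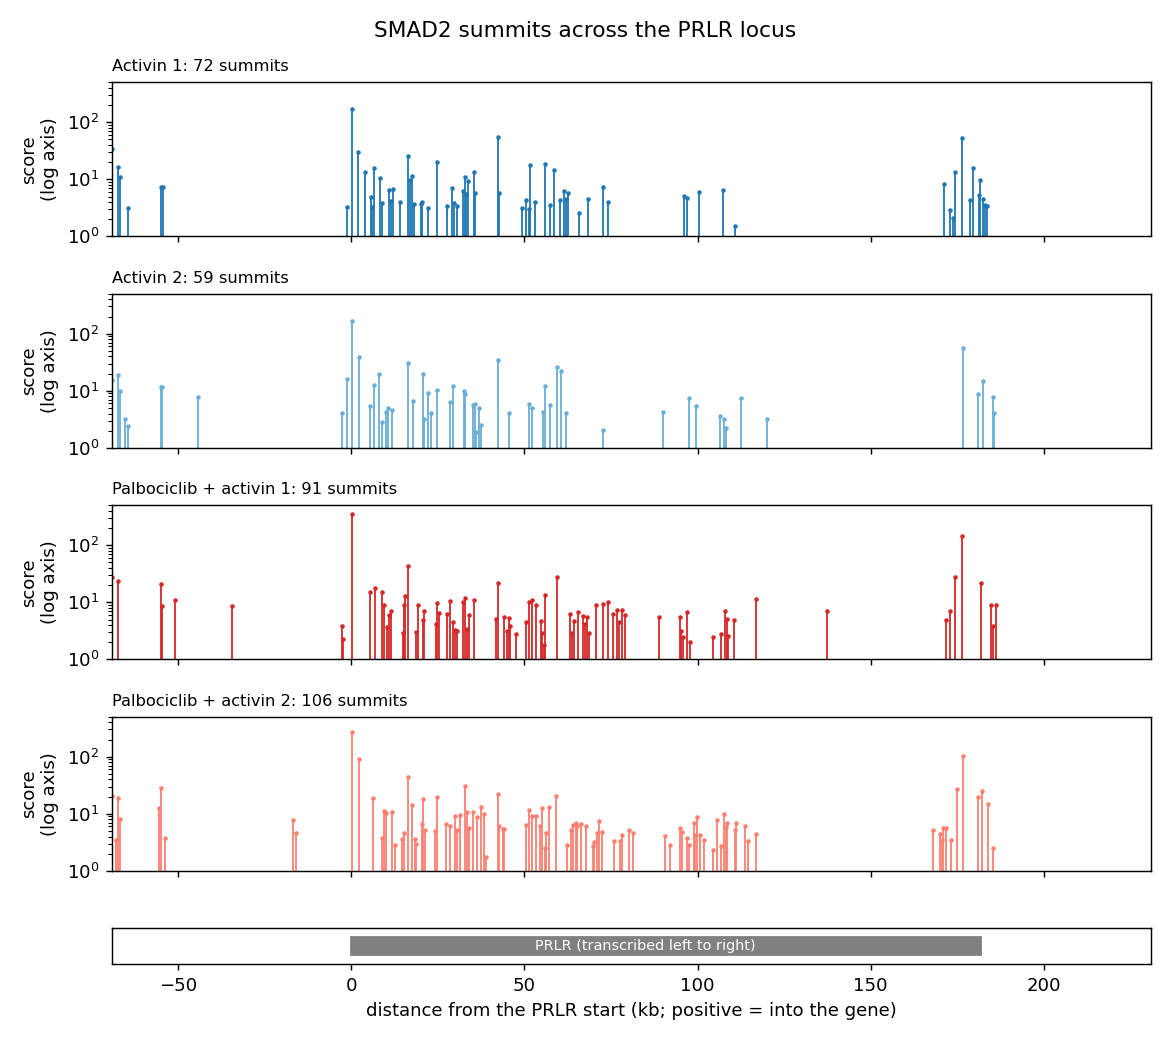
Each stem is 1 SMAD2 summit, placed by its distance from the PRLR start in kb (positive values lie inside the gene) with its score on a log axis, for 2 activin and 2 palbociclib libraries. All 4 lists have their tallest stem at the start and a tall one near the end of the gene, and the palbociclib lists hold more low stems between 60 and 120 kb.

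Other sites found in every library lay mostly in the first part of the gene, at its far end and before its start. The locus held 191 regions, of which 16 (8.38%) had a summit in every library, against 20.4% of all regions on chromosomes 1 to 22 and X. Of the 16, 13 lay inside the gene, and 11 of those were within 60 kb of its start. Another, at 35122901 to 35123333, was 107.7 kb in. Of all locus summits, 62 of 72 and 46 of 59 with activin lay inside the gene, and 80 of 91 and 94 of 106 with palbociclib. The first 60 kb of the gene held 40 and 33 with activin, and 45 and 46 with palbociclib. After the start site, the best placed of the 16 by its worst rank was the region at 35054095 to 35054507, 176.5 kb into the gene and close to its end. Its scores were 52.2 and 56.1 with activin, and 146 and 104 with palbociclib. The region at 35214314 to 35214459, 16.4 kb into the gene, scored 26.1 and 30.5, and then 43.7 and 43.6. The region at 35188389 to 35188409, 42.4 kb in, scored 54.8 and 35.2 with activin and 21.4 and 22.5 with palbociclib. Its ranks were 6394 and 9506 with activin, and 17956 and 16628 with palbociclib. This was the strongest site of the middle 100 kb in both activin lists.

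The remaining ones of the 10 best placed shared regions were weaker. Inside the gene they began at 35197825, 35205908 and 35179239, with worst ranks of 25750, 30493 and 34736. Before the start they began at 35299722, 35298024 and 35285686, with worst ranks of 17689, 18460 and 30695. These 3 lay 55 to 69 kb away from the start of PRLR, toward the edge of the window at 35300 kb. Summits went on past that edge: the next 100 kb held 15 and 14 with activin and 18 and 19 with palbociclib. Between the 3 regions and the start the DNA was nearly empty of summits. From 20 to 40 kb before the start, the activin libraries listed 0 and 0 and the palbociclib libraries 1 and 0.

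More summits were listed across PRLR in cells that also had palbociclib, and the surplus lay in the gene body rather than at the start. In the 300-kb window, 72 and 59 summits were listed with activin, a mean of 65.5 ± 9.2 (SD, n = 2). With palbociclib there were 91 and 106, a mean of 98.5 ± 10.6 (SD, n = 2) and 1.50 times the activin mean. Both palbociclib lists thus exceeded both activin lists, as in 26.8% of all 300-kb windows. The groups were 19 summits apart, and replicates differed by 13 and 15. Comparing these carries no weight, because the locus was chosen for the difference between the groups. Over whole lists the palbociclib libraries had 1.21-fold as many summits. Per 10000 summits of its list, the locus held 14.0 and 10.9 with activin and 14.5 and 16.3 with palbociclib, so activin replicate 1 and palbociclib replicate 1 came close to each other. Within the gene alone the counts were 62 and 46, against 80 and 94. Outside it, the part of the window before the start held 7 and 10, against 8 and 9, and the part past the gene's end held 3 in each library.

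The middle 100 kb of the window, 35100 to 35200 kb, lies wholly within PRLR and held nearly all of the surplus. It had 29 and 26 summits with activin and 50 and 62 with palbociclib, a 2.04-fold ratio of the means. The adjoining 100 kb with the start, 35200 to 35300 kb, had 31 and 28, against 32 and 32. The 100 kb with the end of the gene had 12 and 5, against 9 and 12. Of 18477 windows of 100 kb with any summit, both palbociclib lists exceeded both activin lists in 17.7%. Among the 208 windows with an activin mean of at least 20 summits, a limit set after seeing the data that takes in the middle and the start window, they did so in 35.6%. In the start window the groups were separated by 1 summit. By mean count over the libraries, the middle window ranked 6 and the start window 42 among all windows. These ranks hold for the full lists, weak summits included. Among each library's highest 30000 summits the middle window ranked 317 and the start window 92 of 13522, and among the highest 10000 they ranked 6149 and 2004 of 7557.

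**Figure D2:**
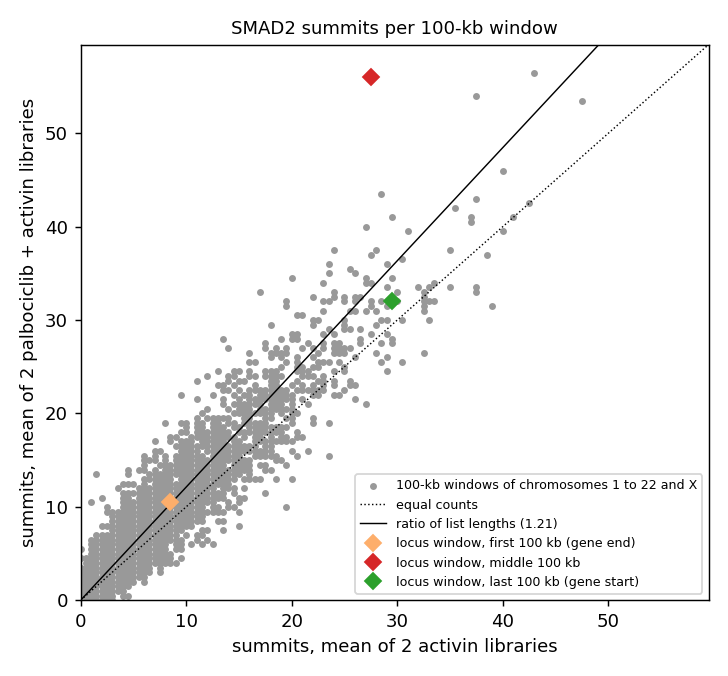
Each grey point is a pair of mean summit counts taken by 1 or more 100-kb windows, with the mean of the 2 activin libraries on the x axis and that of the 2 palbociclib libraries on the y axis; the dotted line marks equal counts and the solid line the ratio of list lengths, 1.21. The middle PRLR window (27.5 and 56 summits) stands off the cloud, which is how it was chosen, while the windows with the start (29.5 and 32) and the end of the gene (8.5 and 10.5) lie within it.

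The 5 other windows most like the middle PRLR window, by Euclidean distance of log2(count + 1) over the 4 libraries, all had smaller ratios. The nearest, at 144.8 to 144.9 Mb of chromosome 8, held 31 and 26 summits with activin and 41 and 46 with palbociclib. The next, at 78.1 to 78.2 Mb of chromosome 17, held 29 and 30, against 40 and 42. The third, at 6.2 to 6.3 Mb of chromosome 10, held 38 and 37, against 55 and 53. The last were chromosome 17 from 7.2 to 7.3 Mb (ratio 1.27) and chromosome 1 from 155.1 to 155.2 Mb (ratio 1.18). Over the same 208 dense windows, the median ratio was 1.09 and PRLR's was the highest. The middle PRLR window was chosen for the widest difference of all windows, so its lead over these windows follows largely from that choice. The 208 windows were picked by their activin counts alone.

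Along the gene, the 2 treatments were alike near the start and parted further in. In the first 20 kb the activin libraries held 16 and 11 summits and the palbociclib libraries 14 and 14. From 20 to 40 kb they held 14 and 14, against 15 and 18. From 40 to 60 kb the counts were 10 and 8, against 16 and 14, and from 60 to 80 kb they were 8 and 3, against 16 and 15. Activin summits thus thinned out beyond 40 kb, while palbociclib summits stayed as frequent as near the start up to 80 kb. From 80 to 100 kb there were 2 and 3, against 6 and 11, and from 100 to 120 kb 3 and 4, against 7 and 13.

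Taken as 1 stretch, bounded after the counts were seen, 60 to 120 kb into the gene held 13 and 10 activin summits and 29 and 39 palbociclib summits. That is 11.5 ± 2.1 against 34 ± 7.1 (SD, n = 2), a 2.96-fold ratio. The first 60 kb held 40 and 33, against 45 and 46, a 1.25-fold ratio, close to that of the whole lists. Past 120 kb the summits nearly ceased: from 120 to 170 kb the libraries listed 0, 1, 1 and 1. They resumed around the end of the gene, where 170 to 190 kb from the start held 12 and 5, against 8 and 11. Of 22 bins of 10 kb with a summit, both palbociclib lists were above both activin lists in 8 and below them in 1, against 10.8% and 2.67% of all such bins of chromosomes 1 to 22 and X. All but 1 of the 8 lay inside the gene, between 35120 and 35210 kb.

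**Figure D3:**
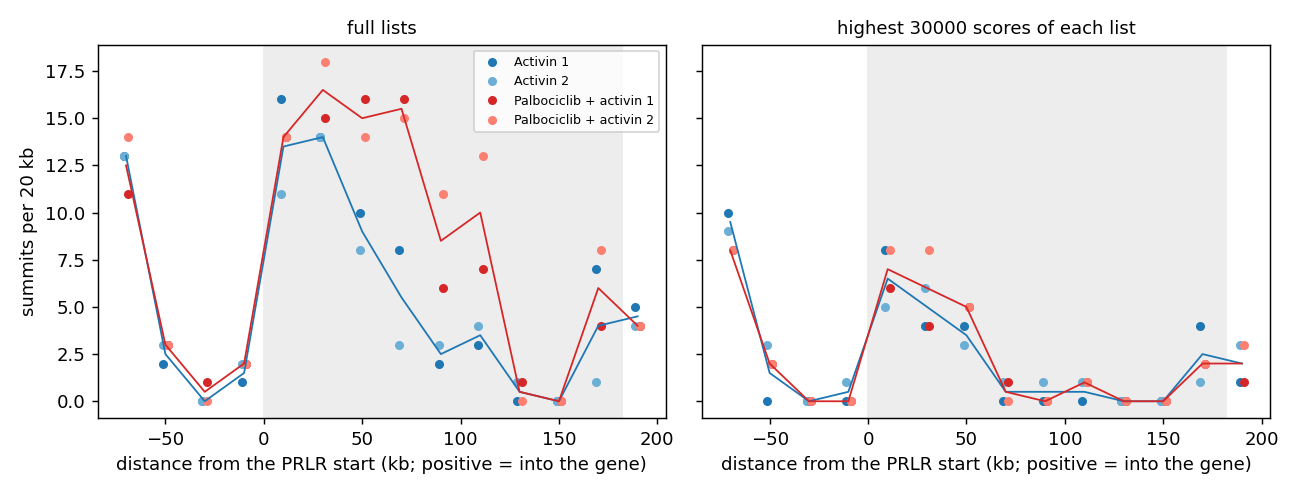
Summits per 20 kb are plotted against distance from the PRLR start in kb, with the gene shaded, 1 point per library and lines through the means of each treatment, for full lists (left) and for each list's highest 30000 scores (right). In the full lists the lines part beyond 40 kb, with 8 and 3 activin summits against 16 and 15 palbociclib summits from 60 to 80 kb; on the right the points of the treatments overlap from 60 to 120 kb.

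Most of the summits in the locus were weak ones, in all 4 libraries. When each list was divided into 10 equal classes by score, the lower 5 classes held 49 of 72 and 35 of 59 locus summits with activin (68.1% and 59.3%). With palbociclib they held 66 of 91 and 70 of 106 (72.5% and 66.0%), where whole lists hold 50% by construction. In the middle 100 kb the lower classes held 22 and 20 activin summits and 40 and 46 palbociclib summits. The upper 5 classes held 7 and 6, against 10 and 16. The number of summits was thus higher in the upper and in the lower classes, by similar ratios of 2.00 and 2.05. The lower classes held 22 of the 28.5 extra summits, and most of the activin summits too. The highest score in the middle 100 kb was 54.8 and 35.2 with activin, and 27.9 and 31.3 with palbociclib, so the many palbociclib summits there included none in the strongest 2 classes.

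Lists cut to their highest scores no longer showed the surplus over the locus. Among each library's highest 30000 summits, the locus held 24 and 28 with activin and 24 and 31 with palbociclib. Among the highest 10000 it held 3 and 4, against 2 and 3, and the groups overlapped in both cases. With each list cut to the length of the shortest, 51535 summits, the counts were 72 and 53, against 60 and 69. In palbociclib replicate 1 a further 2 locus summits were tied at the lowest score kept.

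The middle 100 kb kept a smaller difference under 2 of these limits. At equal length it held 29 and 22, against 30 and 38, and among the highest 30000 it held 7 and 8, against 10 and 12. Both palbociclib lists exceeded both activin lists in 8.42% and 6.43% of all windows under these limits. Among the highest 10000 it held 1 and 1, against 0 and 0, a direction found in 4.67% of windows. The stretch from 60 to 120 kb held 13 and 8, against 17 and 18, at equal length, 0 and 3, against 2 and 1, in the highest 30000, and none in the highest 10000 of any library. In the start window the direction turned at equal length, with 31 and 26, against 23 and 23, as in 7.02% of windows.

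A fixed score told otherwise than a fixed rank. With a score of at least 5, the locus held 40 and 38 activin summits and 60 and 69 palbociclib summits, a 1.65-fold ratio, when the whole lists had a ratio of 1.23. The middle 100 kb then held 17 and 14, against 30 and 38, where 17.6% of windows had both palbociclib lists on top, and 60 to 120 kb held 6 and 4, against 17 and 18. At equal length the lowest score kept was 1.34 and 2.9 with activin, but 4.87 and 4.8 with palbociclib. Score and list length both depend on how deeply a library was sequenced, and the lists do not show that. Depth and treatment therefore cannot be told apart as sources of the weak summits.

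**Figure D4:**
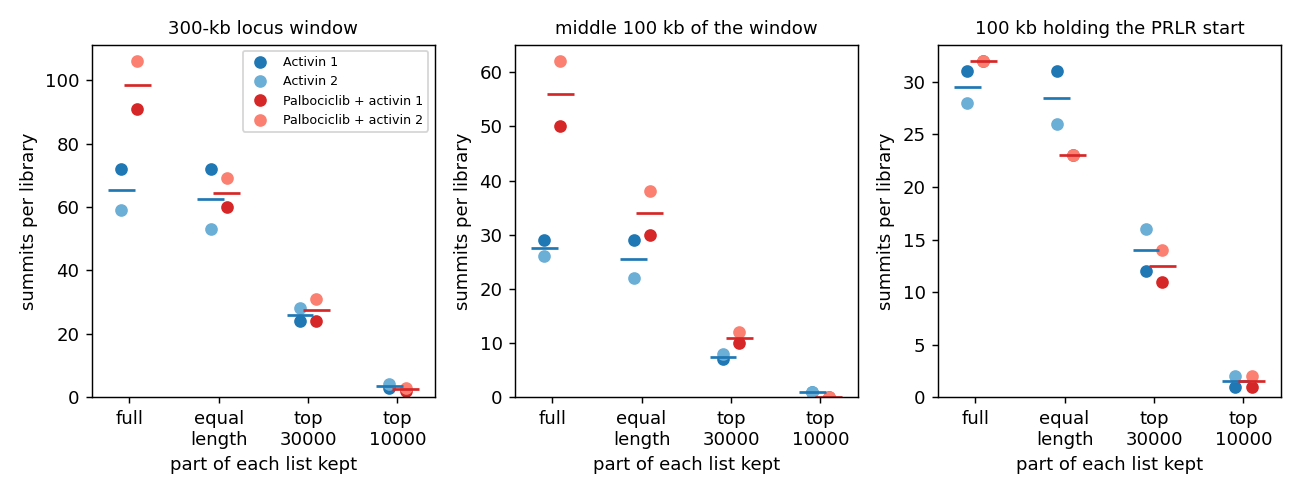
Summits per library (points) and treatment means (bars) are plotted for the 300-kb locus, its middle 100 kb and the 100 kb with the PRLR start, for full lists, lists of equal length, and the highest 30000 and 10000 scores. Over the locus the groups are apart in the full lists (72 and 59 against 91 and 106) and overlap in the 3 shortened sets.

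The regions told apart by treatment were spread through the gene body and were weak. Both palbociclib libraries and no activin library had a summit in 18 regions (9.42% of 191), against 5.29% of all regions. Both activin libraries and no palbociclib library had one in 6 (3.14%), against 2.22% of all regions. The 4 pairs that mix treatments had 4 to 5 regions of their own in the locus. Over all 115321 regions these pairs had 2665 to 3136 each, against 6100 for palbociclib only and 2559 for activin only. Regions of each mixed pair were thus fewer than palbociclib-only ones over all chromosomes too. All 18 palbociclib-only regions lay inside PRLR, 10 of them from 60 to 120 kb into the gene. Of all palbociclib summits of the locus, 80 of 91 and 94 of 106 lay inside the gene. From 60 to 120 kb, a stretch bounded after the counts were seen, lay 29 and 39 of them. The scores of the 18 regions ran from 2.30 to 12.6, and in all 18 at least 1 of the 2 summits was in the lower 5 score classes. The best placed lay at 35221317 to 35221320, 9.5 kb into the gene, where the 2 summits fell 3 bp apart, with scores of 8.99 and 11.1. It was 441 bp from the nearest activin summit.

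Of the palbociclib-only regions, 3 stood close together, 65.4, 64.2 and 63.3 kb into the gene. They lay at 35165386 to 35165488, with scores of 6.69 and 6.17, at 35166488 to 35166621, with 4.64 and 6.31, and at 35167436 to 35167567, with 6.27 and 5.31. Further in came 35135737 to 35135765, 95 kb from the start, and 35122235 to 35122316, 108.5 kb from it. Others of the 10 best placed began at 35196661, 35186600, 35176081 and 35059003, the last of them 171.8 kb into the gene. The median distance from the 18 regions to the nearest activin summit was 606 bp, the longest was 4077 bp, and 11 had one within 1 kb. Neighbouring activin summits of 1 list were a median of 1558 and 1516 bp apart in the locus. The distances were not compared with those of other regions, so they are no result about the palbociclib-only ones.

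The stretch from 60 to 120 kb held 0 of the 6 activin-only regions, and few activin summits of any kind, 13 of 72 and 10 of 59. With so few summits, 0 of 6 is no result about these regions. The best placed were at 35224246 to 35224270, with scores of 15.5 and 12.5, and at 35222547 to 35222710, with scores of 10.6 and 19.8. These lay 6.5 and 8.2 kb into the gene, 286 and 614 bp from the nearest palbociclib summit. The region at 35195037 to 35195063, 35.8 kb in, scored 5.69 and 5.79, and the one at 35173296 to 35173440, 57.4 kb in, scored 3.49 and 5.70. The other two lay outside the gene, at 35231988, named above, and at 35295149 to 35295154.

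**Figure D5:**
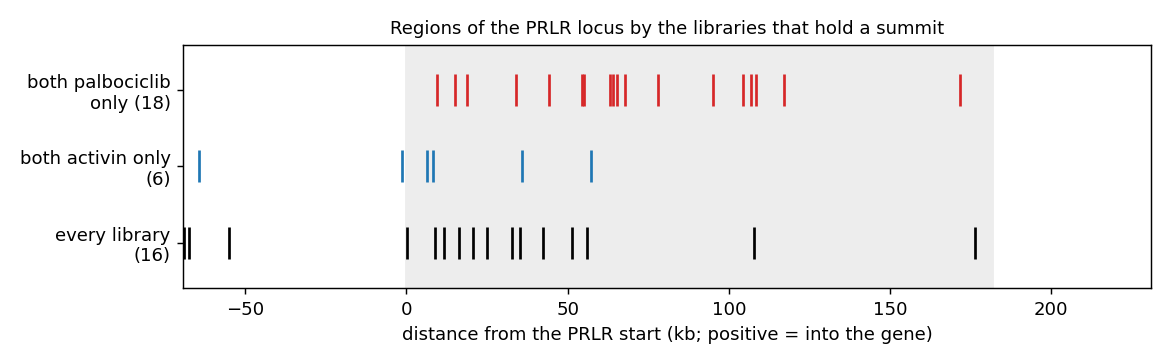
Each tick is a region of the locus at its distance from the PRLR start in kb, with the gene shaded, in rows for regions with a summit in every library (16), in both activin libraries alone (6) and in both palbociclib libraries alone (18). The 18 palbociclib-only ticks all lie inside the gene, as do 13 of the 16 in every library and 4 of the 6 activin-only ones. From 60 to 120 kb, bounds set after the counts were seen, lie 10, 1 and 0 of them.

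Replicates shared fewer of their positions at PRLR than over whole lists. Of the locus summits of activin replicates 1 and 2, 37.5% and 45.8% had a summit of the other activin library within 200 bp, against 58.0% and 55.1% over whole lists. Of those of palbociclib replicates 1 and 2, 52.7% and 45.3% were found in the other palbociclib library, against 58.2% and 56.3%. Across treatments, 25.5% to 34.1% of the palbociclib locus summits had an activin partner, against 49.1% to 50.5% over whole lists. Of the activin ones, 38.9% to 50.8% had a palbociclib partner, against 58.7% to 62.2%. A longer list gives more chances of a match. Regions with a summit in 1 library alone made up 112 of the 191 (58.6%), against 50.8% of all regions. Of the 112, 44 belonged to palbociclib replicate 2, 29 to palbociclib replicate 1, 24 to activin replicate 1 and 15 to activin replicate 2. Over all regions these libraries, in the same order, held 18254, 16933, 10589 and 12772 of the 58548 such regions. Neighbouring summits of 1 library were a median of 1558 and 1516 bp apart with activin and 1032 and 1105 bp with palbociclib.

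The DNA on either side of the locus, which played no part in choosing it, was tested. The 500 kb on each side together held 41 and 39 activin summits and 40 and 51 palbociclib summits, or 40 ± 1.4 against 45.5 ± 7.8 (SD, n = 2). The ratio was 1.14, the groups overlapped, and the exact two-sided permutation test gave p = 0.667, where 2 against 2 libraries cannot give less than 0.333. Other flank lengths separated the groups: 200 kb on each side held 29 and 32, against 33 and 41, and 1000 kb held 55 and 55, against 61 and 72. Each had a ratio of 1.21 and an exact permutation p of 0.333. The whole lists had the same ratio of 1.21, and the flank counts in these tests were not adjusted for list length. At 500 kb, the side before the start held 25 and 22, against 29 and 30, and the side past the end 16 and 17, against 11 and 21. The 100 kb next to the window on the start side held 15 and 14, against 18 and 19.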

How the data were processed

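SMAD2 ChIP-seq of 4 T47D libraries, 2 per treatment, was analysed. The submitters' processing notes name hg19 as the build and list MACS2 2.0.9, Bowtie 1.1.0 and Picard, with no roles or settings. The authors deposited 1 list of summits per library, so replicates were not pooled. The deposited score was read as −log10 q, because the lowest value was 1.31 and a q of 0.05 equals 1.30.

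Positions were made 1-based, and chromosomes 1 to 22 and X kept. Summits at most 200 bp apart were chained into regions. Named regions were the 10 best placed by worst rank among those in every library and those of both palbociclib libraries alone, all activin-only ones, and those within 5 kb of the start. Members, lists and limits were chosen with earlier results of these data known. Python 3.11.15, numpy 2.4.6, pandas 2.3.3, scipy 1.17.1 and matplotlib 3.10.9 were used, and the overlap code was tested on simulated lists. Read depth is unknown, and replicates may be technical, so a p measures only the spread between these libraries. Promoters came from RefSeq (GRCh38.p14). Exons, introns, neighbouring genes and prolactin pathway genes were not placed on hg19 and were not analysed here.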

Additional observations from a re-analysis of the deposited data

How the results depend on the processing

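The log2 ratio of locus summits (0.59) was positive under 11 of 12 alternatives. That tally carries no weight, because the locus was chosen for this difference and the alternatives reuse the same lists. The ratio was 0.045 at equal list length and 0.081 in the highest 30000 scores, with overlapping groups at both cuts. It was 0.31 per 10000 summits and 0.45 to 0.74 without each library in turn. In the highest 10000 it turned to −0.49, from 3 and 4 against 2 and 3 summits. Regions seen in every library (16), with palbociclib only (18) and with activin only (6) numbered 7, 0 and 3 in the highest 30000, and 2, 0 and 1 in the highest 10000, where fewer summits enter. Palbociclib-only regions numbered 7 at equal length, and 11, with 3 activin-only ones, at a score of at least 5. A chaining gap of 100 bp gave 9 regions in every library, one of 500 bp gave 9 palbociclib-only regions, and one of 1000 bp gave 3 palbociclib-only and 1 activin-only. Without each library in turn these counts were 18 to 23, 24 to 65 and 9 to 32, since 1 library then stands for its group: without palbociclib replicates 1 and 2 the palbociclib-only count was 65 and 49, and without activin replicates 1 and 2 the activin-only count was 22 and 32. The log2 ratio of the flanks (0.19) was −0.076 at equal length and −0.25 in the highest 30000, and 0 to 0.35 without each library, with 0 without palbociclib replicate 2; the cause was not tested. Windows higher with palbociclib (17.7%) made up 8.42% at equal length, 6.43% in the highest 30000, 4.14% in the highest 10000, 26.8% at 300 kb and 28.3% to 34.6% without each library.

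Same-numbered libraries showed little correlation of their deviations over 18477 windows (0.027). Most windows held few summits, so this value cannot show whether same-numbered libraries were prepared together. They were treated as unpaired. With the replicate block, which sets libraries of 1 number against each other, the log2 ratio of locus summits was 0.59, and the mean numbers of regions were 30.5 in both libraries, 66.5 in palbociclib alone and 34 in activin alone. Sequencing depth is unknown, which limits all of these counts, and a missing summit is not missing SMAD2.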
